A study of Mus musculus with 7 samples.

Results

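Neurotransmitter receptor genes were examined in kidneys of LBR-null and WT mice by RNA-seq. The genes were taken from the deposited tables by their symbols alone, as subunits of GABA-A, glycine, AMPA, kainate, NMDA and nicotinic receptors and as metabotropic glutamate, muscarinic, serotonin and dopamine receptors, without any measured value. This gave 81 of the 24328 symbols in the tables, of which 78 had at least 1 read in some library. LBR, the lamin B receptor, is a protein of the inner nuclear membrane that holds heterochromatin at the nuclear envelope, and the study used its loss to ask whether genes without CpG islands (CGI- genes) are then expressed out of place. All mice were C57BL/6J and 4 weeks old. LBR-null mice 4001, 4002 and 4007 were homozygous for a loss-of-function allele (Lbric-J/ic-J), which every cell of the animal carries, and the control was 1 WT littermate, mouse 4009 (Lbr+/+). Polyadenylated RNA of the right kidney was sequenced, with 2 libraries from each of mice 4001, 4007 and 4009 and 1 library from mouse 4002. Values are normalized counts, that is, read counts divided by a size factor per library, and libraries of a mouse were averaged before mice were compared. With 1 WT mouse, nothing shows how far WT mice differ among themselves, and an exact permutation of the 4 mice cannot give a two-sided p below 0.25.

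Receptors for neurotransmitters are either ion channels or G protein-coupled proteins. Ligand-gated channels are assembled from several subunits and open within the membrane when the transmitter binds, so that GABA-A and glycine receptors pass chloride, and glutamate-gated AMPA, kainate and NMDA receptors and nicotinic acetylcholine receptors pass cations. Metabotropic receptors are single membrane proteins that act through G proteins inside the cell. These genes are best known from neurons, and the kidney is reached by sympathetic nerve fibres and also responds to dopamine, acetylcholine and serotonin through receptors on tubule and vessel cells. In a whole kidney, a higher level of such an RNA in the same cells and a larger share of cells that express it cannot be told apart.

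Most of these genes were near the limit of detection, whatever the genotype. The median receptor gene had a mean of 7.20 normalized counts over the 4 mice, against 175.8 for all genes above 0. Only 5 of the 81 genes had a mean of at least 100, 9 lay between 30 and 100, 38 between 5 and 30, and 29 under 5. In the 7 libraries 1 read was worth between 0.787 and 1.15 normalized counts, so a gene with a mean of 5 rested on a handful of reads per library. Reads were found in all 7 libraries for 45 of the 81 genes. Gabra6, Drd4 and Glra3 had no read in any library, and a count of 0 over both WT libraries allows a level of up to 1.26 normalized counts (3 reads, for counting error only). The summed level of the 81 genes was 2764 normalized counts in LBR-null kidneys and 2935 in WT, and Grik5 alone made up 35.7% and 26.7% of these sums. A plot of the levels by library shows these few high genes and many low ones.

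**Figure D1:**
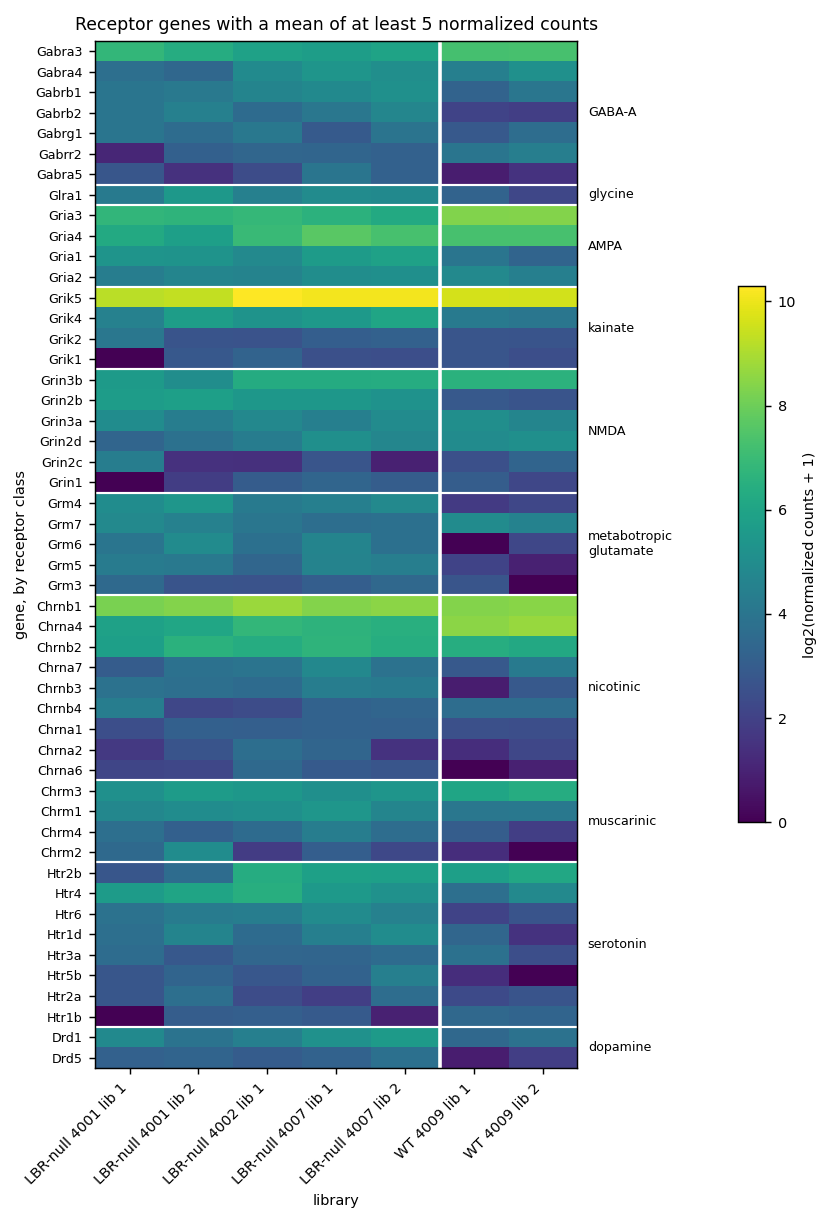
Level of each receptor gene with a mean of at least 5 normalized counts (rows, grouped by receptor class) in each library (columns, the 5 LBR-null libraries left of the white line and the 2 WT libraries right of it). Colour is log2(normalized counts + 1). Grik5 is the highest row in both genotypes, Chrna4 and Gria3 are brighter in WT, and the Grin2b, Grm4, Grm5 and Grm6 rows are darker in WT.

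The libraries held 20694016 to 26333284 reads on genes. Lbr RNA overlapped between the genotypes, with 322, 339.6 and 471 normalized counts in the LBR-null mice and 398 in WT (log2 fold change -0.10 ± 0.32 SE, limma adjusted p = 0.902, n = 3 and 1 mice). The labels give no sex, and Xist was at 5785 and 9940 in LBR-null mice 4001 and 4007 but at 65.3 in LBR-null mouse 4002 and 35.5 in WT, with the Y-linked Ddx3y in the reverse order (141, 44.3, 1516 and 1284). Kidney markers were abundant in every mouse, the 8 proximal tubule markers summing to 99102 to 127521 in LBR-null mice and 171414 in WT, and 7 of the 8 were below WT in all 5 LBR-null libraries. The 15 neuron markers summed to 1935, 1648 and 1615 in LBR-null mice 4001, 4002 and 4007 and to 991 in WT, none at 0 over all libraries. Map2 alone gave 1242, 849 and 789 of these sums and 426 in WT. Of the 15, 7 were above WT in all 5 LBR-null libraries (22.2% of all genes were) and 2, Nefl and Syp, were below (21.4%). Schwann cell markers differed less (2593, 2348 and 2232 against 2266). The 8 adrenal chromaffin markers summed to 32.6, 13.8 and 27.3 against 10.1, with Th at 0 in all mice but one. The 7 adrenal cortex markers summed to 185, 239 and 251 against 134. The 12 skeletal muscle markers summed to 14919 in mouse 4001, against 499, 491 and 810 in mice 4002, 4007 and WT. Mb gave 13964 of that sum, and only Mb, Ckm, Acta1 and Tnni2 were highest in mouse 4001, whereas the other 8 were higher in another mouse. The podocyte marker sum was lowest in mouse 4001 (10665 against 19977, 21056 and 25032). The 8 neutrophil markers summed to 1107, 411 and 2580 in mice 4001, 4002 and 4007 against 82.3 in WT, none at 0 over all libraries, with 7 above WT in all 5 LBR-null libraries and 0 below. Of the macrophage markers, 8 were in the table, summing to 3378, 3284 and 3030 against 4398, with 6 below WT in all 5 LBR-null libraries and 1 above. The part of these cell markers in the receptor values was not tested, and values without mouse 4001, or for mouse 4002 alone, which is nearest to WT in Xist, are given beside several genes.

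As the study's question turns on CpG islands, the start regions of 4 receptor genes are shown, each from 250 bases before to 50 bases after a RefSeq start (assembly GRCm38.p6), in the direction of transcription and with every CG in capitals. Grik5 is the highest receptor gene with an island at its start, and Htr2b is the highest with none at its start or in its body. Grm6 and Chrna4 had the largest log2 differences up and down, with no overlap between genotypes, among genes present in the RefSeq table.
Grik5, chr7:25072320-25072619, minus strand: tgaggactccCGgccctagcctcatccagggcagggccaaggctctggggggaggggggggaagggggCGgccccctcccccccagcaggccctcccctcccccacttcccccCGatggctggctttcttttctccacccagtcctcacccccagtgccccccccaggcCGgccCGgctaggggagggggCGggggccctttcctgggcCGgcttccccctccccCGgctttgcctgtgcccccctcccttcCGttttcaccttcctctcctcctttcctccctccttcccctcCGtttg
Htr2b, chr1:86111931-86112230, minus strand: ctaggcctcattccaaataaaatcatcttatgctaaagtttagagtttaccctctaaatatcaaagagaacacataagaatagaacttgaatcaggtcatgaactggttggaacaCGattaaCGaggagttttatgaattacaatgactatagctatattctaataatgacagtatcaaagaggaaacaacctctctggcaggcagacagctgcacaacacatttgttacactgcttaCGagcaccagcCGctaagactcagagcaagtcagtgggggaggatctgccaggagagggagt
Grm6, chr11:50850435-50850734, plus strand: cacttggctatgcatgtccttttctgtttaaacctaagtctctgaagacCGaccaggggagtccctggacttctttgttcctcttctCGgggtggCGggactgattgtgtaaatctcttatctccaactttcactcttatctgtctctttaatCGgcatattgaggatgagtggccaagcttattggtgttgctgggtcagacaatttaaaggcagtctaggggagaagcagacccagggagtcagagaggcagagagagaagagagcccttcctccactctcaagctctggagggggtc
Chrna4, chr2:181039128-181039427, minus strand: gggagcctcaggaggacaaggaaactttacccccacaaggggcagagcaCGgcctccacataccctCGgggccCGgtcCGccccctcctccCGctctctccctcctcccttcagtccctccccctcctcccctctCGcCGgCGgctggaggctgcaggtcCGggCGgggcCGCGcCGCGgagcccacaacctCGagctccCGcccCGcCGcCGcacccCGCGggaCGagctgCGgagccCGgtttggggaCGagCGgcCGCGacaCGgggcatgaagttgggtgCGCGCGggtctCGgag
The Chrna4 window held 33 CG and the Grik5 window 10, while the Htr2b and Grm6 windows held 4 each. RefSeq gave such windows for 61 of the 81 genes (72 starts), with a median of 11 CG per window against 7 over all 32851 windows (quartiles 3 and 20), counted on 1 strand since CG reads the same on both. Islands were also sought in the mm9 genome around the starts of GENCODE gene models, where Grm6 had an island within 500 bp of one of its starts. By that search 42 of 80 coding receptor genes (52.5%) had an island at a start, against 58.7% of all coding genes, 11 (13.8%, against 4.76%) had one in the gene body alone, and 27 (33.8%, against 36.5%) had none.

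The receptor genes differed between genotypes more often upward than downward, and under 30 normalized counts about as often upward as other genes of their level. Among the 78 genes with reads, 35 (44.9%) were at least 2-fold higher in LBR-null kidneys on the mean over mice, against 22.7% of all 21468 genes with reads, and 9 (11.5%) were at least 2-fold lower, against 8.8%. Of the 35 higher genes, 17 had fewer than 4 reads over both WT libraries and 10 had none. The shares were closer within ranges of level. For means under 5 normalized counts, 50% of 26 receptor genes and 56.3% of all genes were 2-fold higher, and for means from 5 to 30 normalized counts these shares were 47.4% of 38 and 46.6%. For means of 30 and over, 4 of 14 receptor genes (28.6%) were higher and 3 (21.4%) were lower, against 6.81% and 6.35% of 13927 genes. Those 7 genes were Htr4, Grik4, Grin2b and Gria1, which were higher, and Chrna4, Gria3 and Gabra3, which were lower (Gria1 is named because of this count). In this open range the median WT level was 86.4 normalized counts for receptor genes and 611.6 for all genes, so levels were not matched. With 14 genes, the shares are a description and were not tested.

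**Figure D2:**
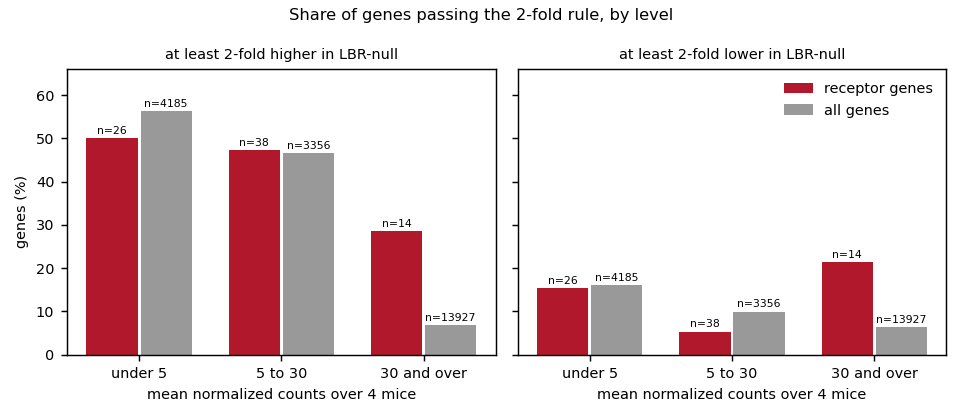
Percentage of genes at least 2-fold higher (left) or lower (right) in LBR-null kidneys, by the mean normalized count over the 4 mice, for the receptor genes (red) and all genes (grey), with the number of genes above each bar. The red and grey bars are alike under 30 normalized counts for higher genes (50% and 56.3%, then 47.4% and 46.6%) and part above 30 (28.6% and 6.81%). Above 30, levels were not matched, with a median WT level of 86.4 for receptor genes and 611.6 for all genes.

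By non-overlap of libraries, 25 of 78 receptor genes (32.1%) had all 5 LBR-null libraries above both of WT, against 22.2% of all genes, and 8 (10.3%) lay below both, against 21.4%. In the model fitted over all genes (limma on log2(normalized counts + 1) of mouse means, mean of at least 5), 52 receptor genes were tested. None passed an adjusted p of 0.05 with a 2-fold change, and neither did any other gene (0.0% of 17283); the smallest adjusted p of a receptor gene was 0.0906. At an unadjusted p under 0.05, 15 of 52 (28.8%) were higher, against 10.7% of all genes, and 4 (7.69%) were lower, against 8.05%. These shares are not matched for level, since 38 of the 52 receptor genes but 3356 of the 17283 genes had means from 5 to 30. The count of higher genes was 9 without mouse 4007 and 8 with single libraries and the mouse as a random block. On reads recovered from the deposited values, edgeR called 0 of 52 in either direction (all genes, 0.00579% higher and 0.156% lower), and DESeq2 called 4 of 40 higher (among them Grin2b, Grm4 and Grm6, against 3.24% of all genes) and 3 of 40 lower (among them Chrna4 and Gria3, against 3.48%). The limma count rested on which mice entered. Without mouse 4001 it called 6 of 50 (among them Chrna4, Gria3, Gabra3, Grin2b and Grm4; all genes, 6.76%), without mouse 4002 it called 6 of 49 (among them Chrna4, Grin2b, Grm4 and Grm6; 3.62%), and with single libraries and the mouse as a random block it called 3 of 52 (Chrna4, Gria3 and Grin2b; 4.9%). Over the 52 genes the median log2 fold change was 0.46, against 0.0073 for all genes tested. Within ranges of level, the median of another measure was taken, the log2 difference between genotype means (each + 1). It was 0.94 against 0.79 for means from 5 to 30 and -0.13 against -0.023 for means of 30 and over. Over the 52 genes the median log2 difference from WT was 0.46, 0.67 and 0.64 in mice 4001, 4002 and 4007 taken singly. Of these 52, 26 were higher than WT in all 3 LBR-null mice, 12 were lower in all 3, and 14 were mixed.

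**Figure D3:**
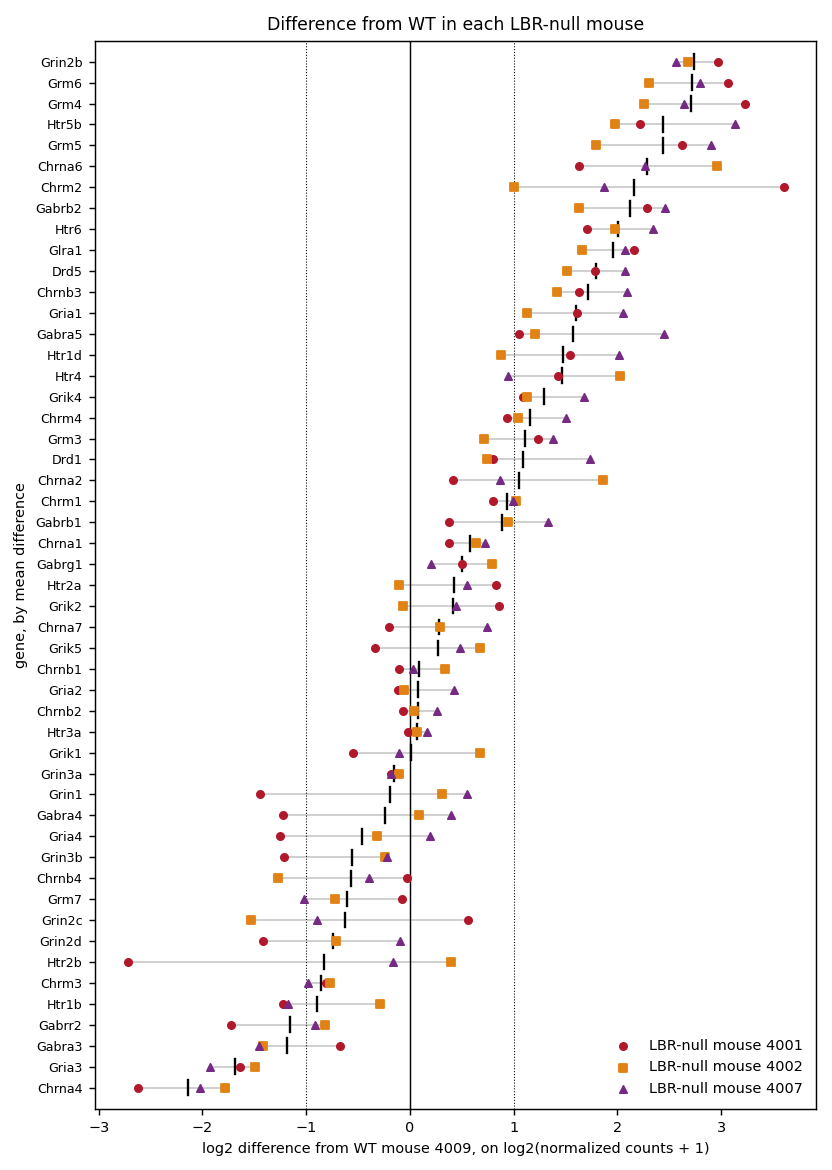
Difference from the WT mouse on log2(normalized counts + 1) for the tested receptor genes (rows, ordered by the mean difference), with 1 point per LBR-null mouse, a black bar at their mean and dotted lines at 2-fold. Genes at the top (Grin2b, Grm6 and Grm4) and at the bottom (Chrna4 and Gria3) have all 3 points on one side of 0, and Htr2b spans both sides, from -2.72 in mouse 4001 to 0.40 in mouse 4002.

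GABA-A receptor subunits differed in both directions. Gabra3, an alpha subunit encoded on chromosome X (69678020-69902187, minus strand, mm9), had 111, 82.5, 57.6, 51.2 and 61.1 normalized counts in the LBR-null libraries and 154 and 157 in WT. It was lower in each LBR-null library, least so in mouse 4001 (log2 fold change -1.18 ± 0.45 SE, limma adjusted p = 0.231, n = 3 and 1 mice; without mouse 4001, -1.44 and 0.0433). Gabrr2, a rho subunit, was at 1.15, 7.99, 9.46, 9.31 and 8.20 against 15.0 and 19.9, where the first library of mouse 4001 held 1 read. Gabrb2, a beta subunit, lay above WT in every LBR-null library, at 14.9, 21.3, 11.2, 15.8 and 25.5 against 3.15 and 2.71 (95 reads over the LBR-null libraries and 7 over WT). Among the remaining tested subunits, Gabra4 (11.2, 29.2 and 36.4 in mice 4001, 4002 and 4007, 27.4 in WT) and Gabrg1 (13.2, 16.3 and 10.6 against 9.03) overlapped between genotypes, and so did Gabrb1 (15.9, 24.1 and 31.8 against 12.0) and Gabra5 (3.76, 4.30 and 11.6 against 1.298). Of the 15 GABA-A genes, 5 were 2-fold higher and 4 were 2-fold lower, against 22.7% and 8.8% of all genes with reads and 46.6% to 56.3% higher among all genes with means under 30. Their summed level was 180, 169 and 201 in mice 4001, 4002 and 4007 against 306 in WT. GABA-A and GABA-B genes with other names, which bind or modify the same transmitter response, included Gabrq (theta subunit; 13.4, 3.44 and 13.4 in the 3 LBR-null mice, 1.24 in WT), Gabbr2 (a GABA-B subunit; 10.8, 10.3 and 12.4 against 3.33) and Gabrp (pi subunit; 17.7, 21.5 and 23.1 against 31.7), each without overlap. None of these 6 passed the limma test.

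Glycine receptors were represented by one gene with sizeable counts. Glra1, an alpha subunit of the glycine-gated chloride channel, had 17.2, 44.4, 21.5, 29.8 and 28.3 against 8.66 and 3.62 normalized counts. Every LBR-null library lay above both WT libraries (log2 fold change 1.96 ± 0.50 SE, limma adjusted p = 0.123). An annotated transcript on the other strand shares 141 bp of exon with Glra1, and since it was not stated whether reads were counted by strand, reads of both cannot be told apart there. In all, 21 of the 81 receptor genes share exon sequence with another annotated gene. Glra2 and Glra4 had 1 and 4 reads in all LBR-null libraries and none in WT, below the level that 3 reads allow. Glrb, the beta subunit of the same channel, had 5.53, 19.8 and 11.0 in LBR-null mice 4001, 4002 and 4007 and 26.2 in WT, the opposite order.

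The AMPA subunits, which carry fast glutamate currents, included 2 of the 5 most abundant genes. Gria3 (chromosome X, 38754031-39031778, plus strand, mm9) had 108, 101, 116, 95.9 and 75.7 against 326 and 330.2 normalized counts, so that WT was 3.21 times higher. The LBR-null libraries spanned a narrow range and none came near WT (log2 fold change -1.68 ± 0.34 SE, limma adjusted p = 0.106). Mouse 4002, whose Xist level was close to WT, was at 116, next to 105 and 85.8 in mice 4001 and 4007, and the part of sex was not tested. Gria4 was spread within the LBR-null group, at 74.6, 55.0, 125, 200.2 and 157, around the WT values of 154 and 157. Its libraries were low in mouse 4001 and at or above WT in mouse 4007, and the difference was within this spread (limma adjusted p = 0.714). Its log2 fold change was -0.46 with mouse 4001 and -0.063 without it. Gria1, 2-fold higher, had 39.0, 38.2, 27.5, 48.4 and 57.4 against 15.0 and 9.05. Gria2, the subunit that keeps AMPA receptors closed to calcium, was level, at 22.2, 23.2 and 32.7 in the LBR-null mice against 24.2.

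Kainate receptors are glutamate-gated channels that also tune transmitter release. Grik5, a subunit that needs a partner to form a channel (chromosome 7, 25794872-25857388, minus strand, mm9), was the highest receptor gene per length as well, at 257 normalized counts per kb of exon in LBR-null kidneys and 204 in WT. It had 594, 642, 1248, 1098 and 1087 normalized counts in the LBR-null libraries and 794 and 772 in WT. Mouse 4001 lay below WT and mice 4002 and 4007 lay above it, and the mean difference was within that spread (log2 fold change 0.27 ± 0.42 SE, limma adjusted p = 0.769). Without mouse 4001 the log2 fold change was 0.58, and in mouse 4002 alone it was 0.67. Without mouse 4002 it was 0.070, and without mouse 4007 it was 0.17. Grik4, a subunit of the same kind, had 21.8, 51.5, 37.8, 46.6 and 64.7 against 18.1 and 15.4, higher in every LBR-null library (2.59 times on the mean, limma adjusted p = 0.212). Grik1 and Grik2 had log2 fold changes of 0.0066 and 0.41, neither larger than its SE (0.71 and 0.63).

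NMDA receptors combine a GluN1 subunit with GluN2 or GluN3 subunits and pass calcium. Grin2b, which encodes a GluN2 subunit that is prominent in the developing brain (chromosome 6, 135679844-136123529, minus strand, mm9), had 50.5, 55.0, 43.0, 42.8 and 36.5 normalized counts in the LBR-null libraries and 6.30 and 5.43 in WT. All 5 LBR-null libraries were far above WT, and the LBR-null mice lay close together, at 52.8, 43.0 and 39.6. On log2(normalized counts + 1), this was the highest log2 fold change among the 52 tested receptor genes (7.70 times WT, log2 fold change 2.74 ± 0.46 SE, limma adjusted p = 0.0906), on 242 reads against 14. By the plain ratio of means, some genes with fewer WT reads stood higher, such as Chrna6 (14.6 times), Grm6 (9.94 times) and Grm4 (8.73 times). The obligatory GluN1 subunit, Grin1, had 29 reads in all LBR-null libraries and 13 in WT, with a level of 1.33, 6.88 and 8.30 in mice 4001, 4002 and 4007 against 5.35. Its antisense partner Grin1os had 1 read, in WT. Grin3b, a GluN3 subunit, was lower in every LBR-null library (48.2, 31.9, 79.96, 80.1 and 81.1 against 92.9 and 95.9), but mice 4002 and 4007, at 79.96 and 80.6, were nearer to WT than mouse 4001, at 40.1. Its log2 fold change was -0.56 with mouse 4001 and -0.23 without it, and 1059 bp of its exons overlap a gene on the other strand. Grin2c and Grin2d, the remaining GluN2 genes with reads enough to test, had 10.6, 1.72 and 3.25 against 6.89 and 11.2, 18.9 and 29.5 against 31.7, and Grin3a had 25.3, 26.7 and 25.3 against 28.8, all overlapping WT. For Grin2b, 3 annotated noncoding RNAs on the other strand share exon sequence, 143 bp at most.

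**Figure D4:**
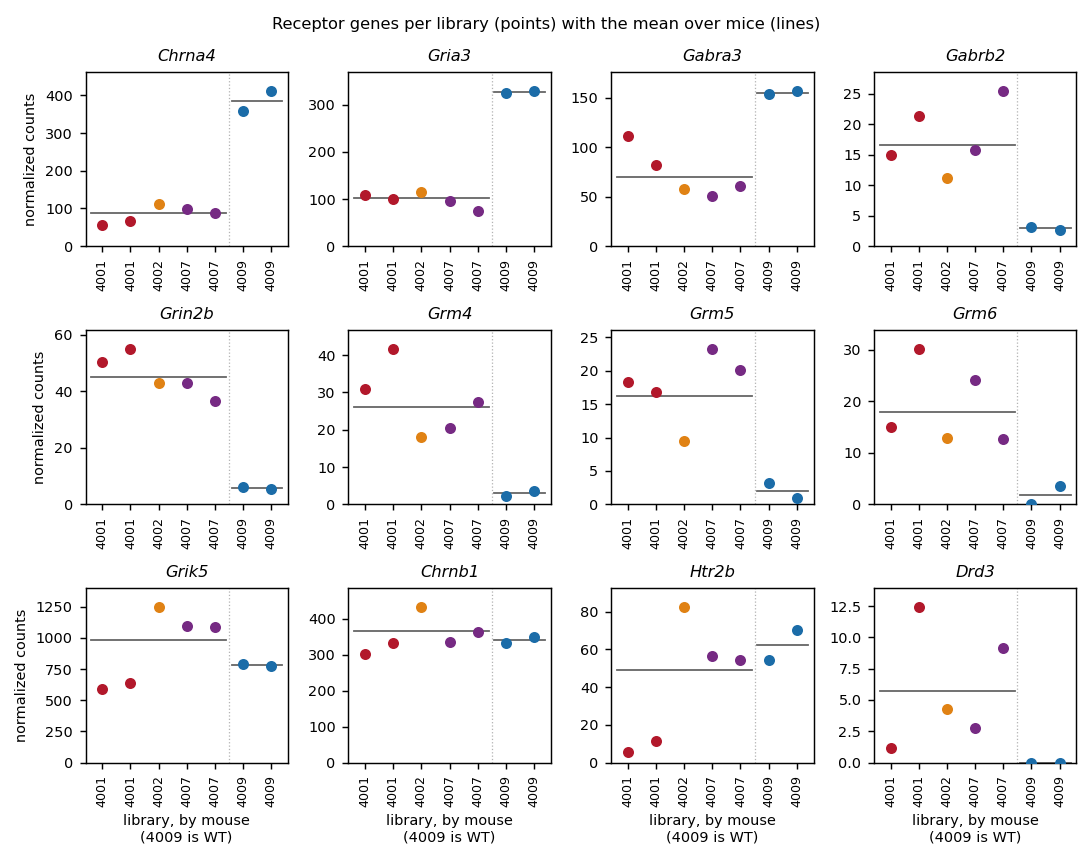
Normalized counts of 12 receptor genes in each library (points, coloured by mouse, with the 2 WT libraries at the right) and the mean over mice of each genotype (lines), each on its own axis from 0. Chrna4, Gria3 and Gabra3 are lower and Gabrb2, Grin2b, Grm4, Grm5 and Grm6 higher in all 5 LBR-null libraries than in both WT libraries, whereas Grik5, Chrnb1 and Htr2b overlap and Drd3 has no read in WT.

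Of the 8 metabotropic glutamate receptor genes, 5 were at least 2-fold higher in LBR-null kidneys and none was 2-fold lower, against 22.7% and 8.8% of all genes with reads, though 46.6% of all genes with means from 5 to 30 were 2-fold higher and 56.3% of those under 5. Of the 6 tested, 4 were higher by the unadjusted limma p, against 10.7% of all genes tested, most of which had means of 30 and over. Grm5, a group I receptor that signals through phospholipase C, had 18.4, 16.9, 9.46, 23.3 and 20.1 normalized counts against 3.15 and 0.905. Grm4, a group III receptor that lowers cyclic AMP (chromosome 17, 27559332-27650286, minus strand, mm9), had 31.0, 41.7, 18.1, 20.5 and 27.3 against 2.36 and 3.62 (8.73 times WT, limma adjusted p = 0.108). Grm6, the group III receptor of retinal bipolar cells (chromosome 11, 50664187-50679710, plus strand, mm9), had 14.9, 30.2, 12.9, 24.2 and 12.8 against 0 and 3.62, on 102 reads against 4. Thus the LBR-null libraries of these genes stood apart from WT, although the WT values rested on 4 to 7 reads each. The counting interval of the read ratio was wide for that reason, from 4.30 to 42.5 for Grm6 and from 4.43 to 23.7 for Grm4 (95%, exact binomial, counting error only). Another gene shares exon sequence with Grm6 (599 bp, other strand), so its reads cannot all be assigned. The summed level of the class was 163, 77.4 and 126 in mice 4001, 4002 and 4007 against 43.8 in WT. Group II receptors, which also lower cyclic AMP, were few in reads, with Grm2 at 1.91, 2.58 and 5.56 against 2.14 and Grm3 at 7.83, 5.16 and 8.74 against 2.76. Grm7, another group III receptor, was not higher, with 24.9, 15.5 and 12.4 against 26.3.

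Nicotinic acetylcholine receptor genes included an abundant gene that was level between genotypes and one that was much lower. Chrnb1, the beta subunit of the muscle receptor (chromosome 11, 69597538-69609445, minus strand, mm9), had 301, 332, 432, 334 and 362 normalized counts against 332 and 350.1, and the genotypes overlapped (log2 fold change 0.09 ± 0.30 SE, limma adjusted p = 0.908). Its sign turned without mouse 4002 (-0.040). The other subunits of the muscle receptor were scarce. Chrna1 was at 6.29, 7.74 and 8.29 in LBR-null mice 4001, 4002 and 4007 and 4.62 in WT, and Chrne at 2.48, 14.6 and 8.28 against 7.72. The part of skeletal muscle, of whose 12 markers 4 were highest in mouse 4001, was not tested. Chrna4, the alpha subunit of the main brain receptor (chromosome 2, 180753085-180778251, minus strand, mm9), had 57.4, 66.6, 112, 98.7 and 89.3 against 359 and 413. No LBR-null library came near WT (WT 4.32 times higher, log2 fold change -2.14 ± 0.42 SE, limma adjusted p = 0.102), and the mouse at 112 was 4002. As for Gria3, the part of sex was not tested. Chrnb2, which joins Chrna4 in that receptor, did not follow it, at 55.1, 94.1, 80.8, 103 and 84.8 against 83.5 and 73.3 (log2 fold change 0.08 ± 0.37 SE). Chrna6, a subunit of dopaminergic neurons, had 3.44, 3.55, 10.3, 6.52 and 5.47 against 0 and 0.905, that is 32 reads against 1 (read ratio 14.3, 95% counting interval 2.38 to 580.4). Chrnb3, often its partner, had 13.1, 11.2 and 18.4 in LBR-null mice against 3.56. Chrna7, the subunit of a calcium-permeable receptor, had 10.1, 14.6 and 20.3 against 11.7, Chrnb4 had 11.5, 4.30 and 8.75 against 11.8, and Chrna2 had 3.81, 12.0 and 5.57 against 2.597, all with overlap. Over the 13 genes the summed level was 509, 694 and 608 against 844, to which Chrna4 gave 62.0, 112 and 94.0 against 386.

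Muscarinic receptors are the G protein-coupled acetylcholine receptors, and none of the 4 tested genes had an unadjusted limma p under 0.05. Chrm3, which drives glands and smooth muscle, had 34.4, 48.8, 43.0, 33.5 and 40.1 against 65.4 and 82.3 normalized counts. All LBR-null libraries were below WT, by less than 2-fold (log2 fold change -0.85 ± 0.40 SE, limma adjusted p = 0.316). The 8 smooth muscle and mesangial markers summed to 8770, 6338 and 7914 in mice 4001, 4002 and 4007 against 13536 in WT, with 5 of them below WT in all 5 LBR-null libraries and 1 (Myocd) above, and their part in the Chrm3 value was not tested. Chrm2, the receptor that slows the heart, had 10.3, 31.1, 2.58, 7.45 and 3.65 against 1.57 and 0, with 35 of its 59 LBR-null reads in a single library of mouse 4001 and 2 reads in WT (read ratio 13.1, 95% counting interval 3.48 to 111). Chrm1 had 28.7, 33.5 and 32.8 against 16.02 and Chrm4 10.3, 11.2 and 15.7 against 4.90, both above WT in every LBR-null library. Chrm5 had 1 read, in WT.

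Serotonin receptors are G protein-coupled except for the channel subunits Htr3a and Htr3b. Htr2b, a receptor of smooth muscle and fibroblasts (chromosome 1, 87995601-88008545, minus strand, mm9), had 5.74, 11.5, 82.5, 56.8 and 54.7 against 54.3 and 70.6 normalized counts. Mouse 4001 was low in both libraries, whereas mice 4002 and 4007 overlapped WT, so that the log2 fold change was -0.83 ± 1.15 with it and 0.12 without it. Its exons share 252 bp with Psmd1 on the other strand. Htr4, which raises cyclic AMP, had 49.4, 63.0, 86.0, 44.7 and 35.5 against 12.6 and 28.0 and was above WT in every LBR-null library (2.99 times, limma adjusted p = 0.211), though the WT libraries differed from each other by more than 2-fold. Htr6, also coupled to cyclic AMP, had 13.8, 18.6, 19.8, 29.8 and 21.9 against 3.15 and 5.43 (limma adjusted p = 0.129). Htr5b had 5.74, 8.87, 6.02, 8.38 and 21.0 against 1.57 and 0, on 54 reads against 2 (read ratio 12.0, 95% counting interval 3.17 to 102). Htr1b, which lowers cyclic AMP, was below WT in every library (0, 7.10, 7.74, 6.52 and 0.911 against 10.2 and 9.05) but by 1.93 times only, with no read in the first library of mouse 4001. Its log2 fold change was -0.89, but -0.28 in mouse 4002 alone, and a noncoding RNA on the other strand shares 852 bp of its exons. Of the 14 serotonin receptor genes, 8 were 2-fold higher and 1 was lower, against 22.7% and 8.8% of all genes with reads and 46.6% to 56.3% higher among all genes with means under 30. Above WT in every LBR-null library lay 4 of the 14, a share near the 22.2% of all genes. Htr1d had 18.3, 11.2 and 25.7 in the LBR-null mice against 5.63, above WT in every library, and Htr2a had 9.08, 4.30 and 7.32 against 4.68, with overlap. Htr3a, the channel subunit, was level at 8.85, 9.46 and 10.1 against 8.96.

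Dopamine receptors had few reads, although the kidney makes dopamine in the proximal tubule. Drd1, the main receptor of the D1 kind, which raises cyclic AMP, had 28.7, 14.2, 20.6, 35.4 and 48.3 against 10.2 and 13.6 normalized counts. It was above WT in every LBR-null library, by 2.35 times (log2 fold change 1.09 ± 0.58 SE, limma adjusted p = 0.370). Drd5, the other receptor of that kind, was at 8.46, 6.88 and 10.6 against 1.75, and 1386 bp of its exons overlap a noncoding RNA on the other strand. Drd3, a D2-kind receptor, had 1.15, 12.4, 4.30, 2.79 and 9.11 in the LBR-null libraries and no read in WT, 33 reads against 0, which is at least 4.50 times the level that 3 reads over both WT libraries allow. The reads of Drd3 were uneven between libraries of one mouse, with 1 and 14 in mouse 4001. Drd2 had 12 reads against 0. The enzyme that makes dopamine in the tubule, Ddc, did not separate the genotypes (2074, 716 and 1805 against 1791).

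The 26 genes with reads but a mean under 5 had few reads each, yet they made up 13 of the 35 genes 2-fold higher and 4 of the 9 lower. Chrna3 and Chrna5, subunits of autonomic ganglia, had 8 reads over the LBR-null libraries against 0 over WT, and 8 against 1. Grm2, Grm8, Grik3 and Gabra2 had 19, 17, 9 and 15 reads against 5, 6, 5 and 3. In the other direction Gabrg3 had 2 reads against 6 and Htr7 had 3 against 4. Htr1a and Htr5a had 5 reads against 0 each, Htr2c and Htr3b 2 against 0, Htr1f 3 against 1, Grin2a 2 against 1, Gabrr1 3 against 2, Gabrr3 6 against 1, Chrna9 10 against 4 and Chrna10 9 against 4. With 5 LBR-null and 2 WT libraries of like depth, reads in equal numbers per library would stand at 5 to 2, and few of these pairs can be told from that ratio at this depth. These genes were named after their counts were seen.

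By island class, the 2-fold rule found 15 of 41 receptor genes higher with an island at a start (36.6%), 7 of 11 with an island in the body alone (63.6%) and 13 of 25 with none (52%). The same shares over all genes were 8.33%, 29.9% and 39.6%. Levels differ between these classes in the whole table, where the median WT level was 612 normalized counts with an island at the start and 8.93 with none, but only 5.35 and 2.76 among receptor genes. Within means from 5 to 30, 8 of 20 receptor genes with an island at the start (40%) and 6 of 12 with none (50%) were higher, against 37.7% and 49.9% of all such genes. In that range 4 of 6 with an island in the body alone (66.7%) were higher, against 43.8%. For means of 30 and over, 2 of 9 with an island at the start (22.2%), 1 of 2 with one in the body alone (50%) and 1 of 3 with none (33.3%) were higher, against 4.16%, 13.8% and 14.6%. Levels were not matched there, as the median WT level with an island at the start was 155.9 for receptor genes and 741 for all genes.

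The genes that make, move and anchor these transmitters and receptors were listed for comparison, and none passed the limma test in any list. Among 14 genes of GABA and glycine metabolism, 12 were tested, with 3 higher and 3 lower by the unadjusted limma p. Over all genes tested these shares were 10.7% and 8.05%. Slc6a11, a GABA transporter, had 30.8, 31.8 and 41.9 normalized counts in LBR-null mice 4001, 4002 and 4007 and 4.29 in WT. Gldc, which breaks down glycine, had 6007, 2312 and 6641 against 745. The 3 lower genes were Slc6a13, a GABA transporter, at 1705, 1576 and 1274 against 2995, and Aldh5a1 and Shmt2, enzymes of GABA breakdown and of glycine and serine exchange, which are named because of this count. Slc6a12, the betaine and GABA transporter, had 91.8, 461 and 156 against 517 and was not among them (limma adjusted p = 0.392). Of 13 glutamate genes, 11 were tested, with 1 higher and 0 lower (10.7% and 8.05% of all genes). Slc1a3, a glial-type glutamate transporter, had 255, 198 and 226 against 107. Slc7a11, the cystine-glutamate exchanger, had 23.2, 62.8 and 17.5 against 11.7 and did not pass the unadjusted limit (limma adjusted p = 0.423). Slc1a1, the glutamate transporter of tubule cells, had 3475, 3133 and 1864 against 4915 (limma adjusted p = 0.308). Of 7 acetylcholine genes, 6 were tested, with 3 higher and 0 lower (10.7% and 8.05%). Slc18a3, the vesicular acetylcholine transporter, had 74.0, 52.4 and 57.1 against 10.4, and Slc5a7, the choline transporter, 11.2, 10.3 and 6.91 against 2.48. Of 19 monoamine genes, 15 were tested, with 1 higher and 3 lower (10.7% and 8.05%). Tph2, which begins serotonin synthesis in neurons, had 20.1, 28.4 and 17.5 against 2.54. Slc6a3, the dopamine transporter, had 9.97, 6.02 and 21.2 against 3.27 and did not pass the unadjusted limit (limma adjusted p = 0.358). Slc22a2, an organic cation transporter of the proximal tubule, had 279, 667 and 117 against 4750, and Slc18a1, a vesicular monoamine transporter, 325, 439 and 290 against 2208. Slc22a2 was lowest in the mice with high Xist, and mouse 4002, with Xist near WT, was at 667 against 4750 in WT. The part of sex in these values was not tested.

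**Figure D5:**
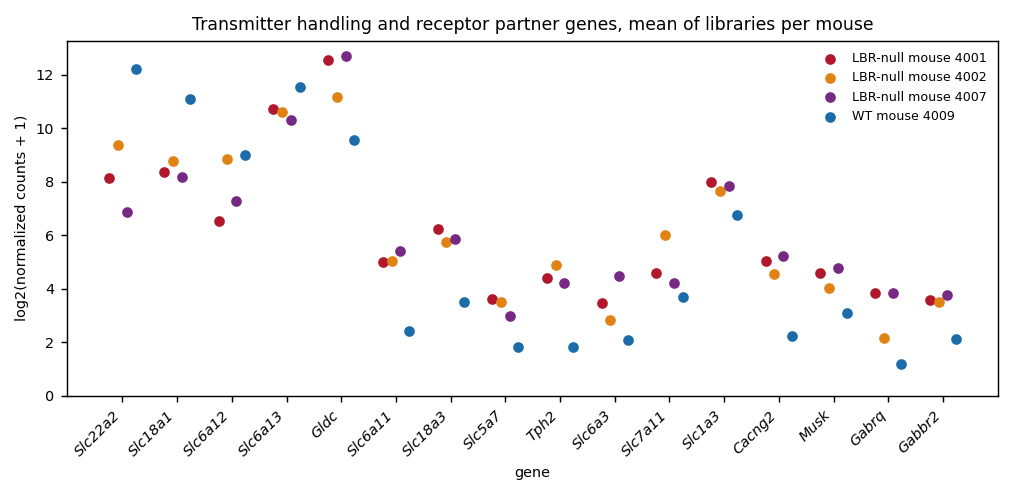
Level per mouse, as log2(normalized counts + 1) of the mean of its libraries, of 16 genes of transmitter handling, receptor partners and related subunits, a selection from the genes without overlap between genotypes. Lower genes without overlap such as Adrb1, Adra1b, Glrb, Grid1 and Homer1 are not plotted, so the split between lower and higher genes reflects the selection. The 4 genes at the left are lower and the other 12 higher in the 3 LBR-null mice than in the WT mouse (blue), by the largest margin for Slc22a2.

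Of 26 scaffold, auxiliary and chaperone genes, 25 were tested, with 4 higher and 0 lower by the unadjusted limma p (10.7% and 8.05% of all genes). Cacng2, an auxiliary subunit that carries AMPA receptors to synapses, had 32.1, 22.4 and 36.8 against 3.72, and Musk, a kinase of the neuromuscular junction, 22.7, 15.5 and 26.3 against 7.44. Homer1 and Dlg4, which anchor glutamate receptors, had no unadjusted limma p under 0.05 and lay below WT in all 5 LBR-null libraries, at 202, 113 and 129 against 245 and at 133, 197 and 139 against 239. Grid1, a delta glutamate receptor, had 32.4, 49.0 and 26.3 against 72.4. Adrenergic receptors, which receive the sympathetic signal, had no gene above WT in every LBR-null library and 4 of 9 below, against 22.2% and 21.4% of all genes. Adrb1 was at 37.5, 31.8 and 29.8 against 84.4 and Adra1b at 83.8, 48.1 and 28.0 against 108. The other nicotinic subunits Chrnd and Chrng were below 1 normalized count in every mouse.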

How the data were processed

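Polyadenylated RNA of kidneys was sequenced as paired-end 150-bp reads. Alignment by the authors was to mm9 (STAR 2.6.0, per the labels), after which the read counts per gene were divided by DESeq2 1.25.1 size factors, and the authors deposited these normalized counts (a signal per gene symbol and library). The counting program, its annotation and its use of strand were not given in the sources used here. All values were whole multiples of the value of 1 read (100% within 0.01 read), so reads were recovered. Whether both libraries of a mouse came from separate aliquots is not stated, and where nothing says that they did, their spread may be technical. Libraries were averaged within a mouse. The 2-fold rule took genes above 0 in either genotype whose means over mice differed at least 2-fold. limma 3.58.1 (R 4.3.3, eBayes with trend) was fitted to log2(normalized counts + 1) over the 17283 genes whose mean reached 5, and p-values were adjusted over these by Benjamini-Hochberg. The fit has 2 residual degrees of freedom, so WT, with a single mouse, is taken to vary like the LBR-null group. Low genes change more than their log2 values on this scale show. Recovered reads, summed per mouse, were also tested by DESeq2 1.42.0 and by the quasi-likelihood test of edgeR 4.0.16. DESeq2 gave no adjusted p for 12 of the 52 receptor genes. The tests were run on simulated data first. CpG islands (GC of at least 50%, over 200 bp, observed over expected CpG over 0.6) were sought in the mm9 sequence, within 500 bp of any GENCODE start. The members and lists were chosen with earlier results of these data known. Named genes were the 12 highest receptor genes, the highest of each class, up to 10 per direction with the largest log2 changes among those whose libraries did not overlap, genes with a mean of at least 2 and no WT read, and up to 2 per list and direction. Genes named beyond this were named after their values were seen. Results for a few of these genes are not reported here, by name or in the plots, although counts and sums include them.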

Additional observations from a re-analysis of the deposited data

Results flagged for a closer look

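Among the 28 receptor genes named by the rule, 3 had 1 LBR-null library far from the other 4 by Dixon's test over the 5 LBR-null libraries. Htr5b was at 21.0 normalized counts in the second library of mouse 4007, against 5.74 to 8.87 in the others. Chrm2 was at 31.1 in the second library of mouse 4001, against 2.58 to 10.3. Gabrr2 was at 1.15 in the first library of mouse 4001, against 7.99 to 9.46. Chance flags about 1 in 20 groups, and libraries of a mouse are not independent.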

How the results depend on the processing

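Limits and alternatives are given for the counts of receptor genes and for 27 named and tested genes. Scaling to equal totals or by TMM kept each count of genes within 1.5 times. A minimum mean of 10 normalized counts left 15 genes 2-fold higher and 5 lower, with 16 above both WT libraries, and a pseudocount of 5 left 18 higher and 4 lower. Mouse 4002 alone gave 15 genes 2-fold lower, 42 above and 18 below both WT libraries. The median log2 fold change was 0.59 by DESeq2, 0.58 by edgeR, 0.32 with a pseudocount of 5 and 0.64 in mouse 4002 alone, over the genes whose mean of mouse 4002 and WT reached 5. Genes passing the adjusted test numbered 7 by DESeq2 and 3 with the mouse as a random block, and 8 were then higher at an unadjusted p under 0.05. Leaving out 1 mouse or library gave 32 to 39 genes 2-fold higher, 9 to 13 lower, 25 to 32 above and 8 to 14 below both WT libraries, medians from 0.38 to 0.65, 0 to 6 genes past the adjusted test, and 9 to 17 higher and 3 to 5 lower at an unadjusted p under 0.05. The lowest of these (9 higher) came without mouse 4007, and the highest count below WT (14) without the second WT library. Library numbers did not pair the libraries across mice (correlations of deviations from -0.042 to -0.0049). With these numbers as a replicate block on the numbered libraries, the median was 0.53, 6 genes passed the adjusted test, and 8 higher and 4 lower had an unadjusted p under 0.05. Of 527 values of single genes, 492 kept their direction and their side of the threshold, 28 kept the direction and passed the threshold, and 7 turned in sign. These were Chrnb1 (-0.041 with the replicate block), Htr2b (0.40 in mouse 4002 alone), and, over single mice or libraries left out, Chrnb1 (-0.040 to 0.18), Chrnb2 (-0.065 to 0.19) and Htr2b (-1.44 to 0.12). The cause was not tested. The depth limits genes with a mean under 5, where 1 or 2 reads decide the 2-fold rule.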
